A study of Mus musculus with 69 samples.

Results

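A set of 10 messenger RNAs that earlier work tied to direct repression by the miR-200 microRNAs, other than those of Zeb1 and Zeb2, was followed across all deposited count tables: Flna, Msn, Cfl2, Wasf3, Elmo2, Sec23a, Jag1, Qk, Suz12 and Klhl20. They were taken by gene symbol and not by a filter on measured values, though earlier results of these data were known when they were chosen. They are 10 of the 55964 gene identifiers in the tables. The data are 69 RNA-seq libraries of 3 tissues (pituitary, hypothalamus, ovary) taken from female C57BL/6J mice at proestrus. WT mice were compared with Zeb1 knock-in mice whose 3′ UTR carries point changes in the predicted miR-200a/b sites, on 1 allele in 200H and on both in 200M. The allele is present in every cell, so a difference in one tissue can start in another, and the knock-in was kept as lines from 2 embryonic stem cell clones. Young mice were virgins of 8 to 12 weeks, and older mice were 28 to 36 weeks old and had been through a breeding trial. Each of the 18 groups holds 4 libraries except young WT pituitary, older 200M pituitary and older 200M hypothalamus, which hold 3. For 1 of the young WT pituitary libraries the number in the count table (3) is that of no sample title (1, 2 and 4), and it is called the WT library of unmatched number here. Nothing in the labels ties libraries of different groups to one mouse.

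With their spans on GRCm38 and their identifiers, the genes are Flna (chrX:74223461-74249820, ENSMUSG00000031328), Msn (chrX:96096042-96168552, ENSMUSG00000031207), Cfl2 (chr12:54858809-54862877, ENSMUSG00000062929), Wasf3 (chr5:146384985-146473615, ENSMUSG00000029636), Elmo2 (chr2:165288031-165326479, ENSMUSG00000017670), Sec23a (chr12:58958383-59012017, ENSMUSG00000020986), Jag1 (chr2:137081456-137116644, ENSMUSG00000027276), Qk (chr17:10202601-10319854, ENSMUSG00000062078), Suz12 (chr11:79993106-80034123, ENSMUSG00000017548) and Klhl20 (chr1:161088375-161131511, ENSMUSG00000026705).

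Libraries held between 3321845 and 14655095 counted reads, and all 10 genes passed the filter on low counts in every comparison. Tissue markers matched the labels. For 10 pituitary genes (of hormones, receptors and the transcription factor Pou1f1) the summed level was at least 68690 CPM (reads per 1000000 counted reads) in every pituitary library. It was at most 165 CPM in every other library. These are whole tissues, so fewer cells of a type and less RNA per cell cannot be told apart. Young and older libraries were made and counted by different methods, so levels are compared only within a cohort.

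MicroRNAs of the miR-200 family pair through their seed, bases 2 to 8, with complementary letters in the 3′ UTR of a messenger RNA, which lowers its stability and translation. The family is abundant in epithelial cells and in the pituitary and is known for holding down the transcription factors Zeb1 and Zeb2, which in turn repress the miR-200 genes. Many of its other reported targets act on actin, on secretion or on cell signalling. The 5 mature microRNAs fall into 2 seed groups, and they are shown, from RefSeq on GRCm38.p6, because the seed (capitals) defines what was searched for in the 10 messages.
miR-200b-3p: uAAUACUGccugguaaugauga
miR-200c-3p: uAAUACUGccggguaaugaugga
miR-429-3p: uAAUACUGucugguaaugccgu
miR-200a-3p: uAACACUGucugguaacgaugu
miR-141-3p: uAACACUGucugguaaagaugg
The seeds of the first 3 and the last 2 are unlike at 1 place, position 4 from the 5′ end. A full match to the first group in DNA letters is CAGTATTA (8mer), and CAGTATT (7mer-m8) and AGTATTA (7mer-A1) are the shorter forms contained in it. For the second group they are CAGTGTTA, CAGTGTT and AGTGTTA. Only the strand of the message was searched, and a short form inside an 8mer was not counted again.

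In the longest annotated 3′ UTR, 7 of the 10 genes held at least 1 match, 23 in all, while 32.2% of 21006 coding genes with a 3′ UTR held one. Of the 23 matches, 11 were 8mers, 8 were 7mer-m8 and 4 were 7mer-A1, and 15 belonged to the first seed group. UTR length sets much of such a count, so each gene is read against genes whose UTR length lies within 20% of its own. Qk, whose 3′ UTR runs over 7014 nt, held 9 matches, and 0.468% of genes of like length held as many, although 89.2% held at least 1. Over the union of its annotated 3′ UTRs Qk held 14, which made 28 in all, and no other gene of the 10 gained one. Sec23a held 3 in 1614 nt (2.55% held as many), Cfl2 3 in 2308 nt (6.7%), Wasf3 3 in 3238 nt (14.7%), Msn 2 in 1918 nt (15.9%) and Suz12 2 in 1933 nt (16%). Jag1 held 1 match, a 7mer-A1, and 38.8% of genes of like length held at least 1. Flna (329 nt), Elmo2 (2330 nt) and Klhl20 (2052 nt) held none in this window, where 10.3%, 55% and 48.8% of genes of like length held at least 1. A match is a run of letters and not a measured site.

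**Figure D1:**
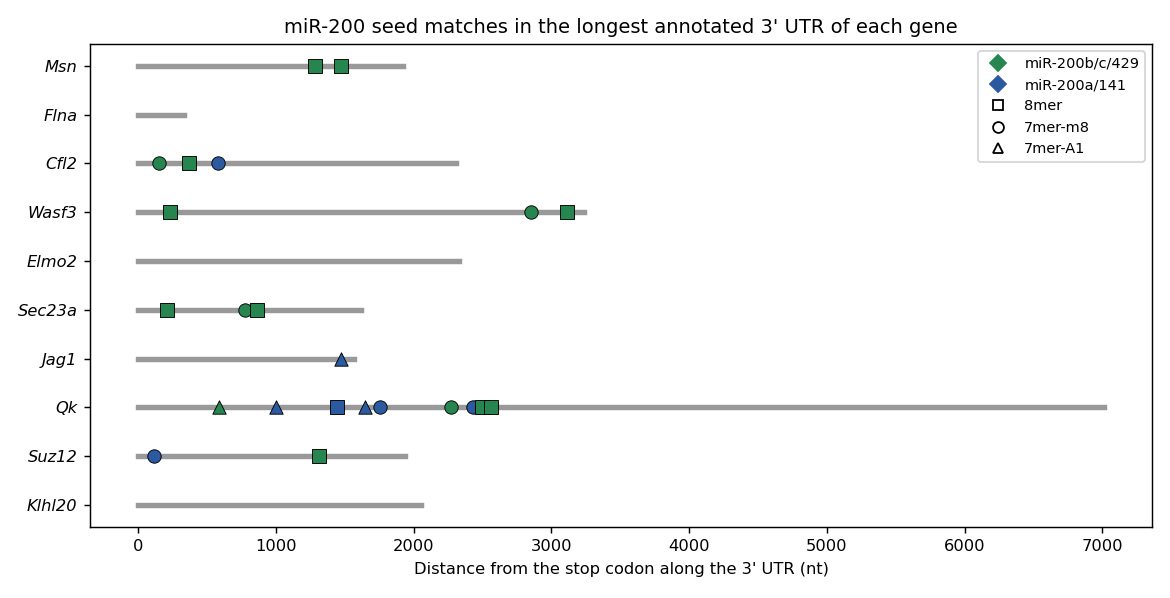
Position of each miR-200 seed match along the longest annotated 3′ UTR of the 10 genes, in nt from the stop codon, with color for the seed group and marker shape for the kind of match. Qk carries 9 matches along 7014 nt, and Flna, Elmo2 and Klhl20 carry none.

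The matches of Msn, Cfl2 and Sec23a, which passed the test of 200M against WT in both pituitary cohorts under all 13 alternatives tried, are shown from GRCm38, with those of Suz12, which carries matches of both groups and did not pass. Capitals mark the match and each window is at most 25 bases of the message strand. For Msn, on the plus strand of the X chromosome, the matches lie at chrX:96167916-96167923 and chrX:96168107-96168114.
Msn match 1: cttttaatttttacCAGTATTAtat
Msn match 2: atgtaagaagatttCAGTATTAgcg
For Cfl2, on the minus strand, they lie at chr12:54860972-54860978, chr12:54860748-54860755 and chr12:54860541-54860547.
Cfl2 match 1: tataagaagcctgtCAGTATTgcc
Cfl2 match 2: tgggagacttgtttCAGTATTAttt
Cfl2 match 3: ttatcctagtatctCAGTGTTcat
For Sec23a, on the minus strand, they lie at chr12:58959784-58959791, chr12:58959218-58959224 and chr12:58959129-58959136.
Sec23a match 1: tgttttgcctgataCAGTATTAtaa
Sec23a match 2: cccattgtgttcttCAGTATTtta
Sec23a match 3: ggttcttactgagaCAGTATTAata
For Suz12, on the plus strand, they lie at chr11:80032302-80032308 and chr11:80033501-80033508.
Suz12 match 1: ggattgggaacaggCAGTGTTcga
Suz12 match 2: tgtgacttgtcatcCAGTATTAagt

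The targeted gene and the microRNA host transcripts place the genotypes. Zeb1 was at 98.84, 95.93 and 95.99 CPM in young WT pituitary and at 132.6, 136.5, 141.9 and 140.5 CPM in 200M, which is higher by 0.52 on the log2 scale (SE 0.06, adjusted p = 2.39e-05, edgeR's quasi-likelihood test with Benjamini-Hochberg adjustment over all genes tested, as for every adjusted p here unless another tool is named). In older pituitary Zeb1 rose by 0.55 (adjusted p = 0.000833). Zeb2 differed by 0.20 in young and 0.53 in older 200M and did not pass (adjusted p = 0.224 and 0.0983). Gm13648, the host transcript of miR-200b, miR-200a and miR-429, fell by 2.79 on the log2 scale in young 200M pituitary (adjusted p = 3.37e-08) and by 2.91 in older (adjusted p = 0.000141). Gm15884, which hosts miR-200c and miR-141, fell by 1.95 and 1.64 (adjusted p = 0.00834 and 0.00907). In hypothalamus both host transcripts averaged at most 0.32 CPM in WT and in 200M and were too low to test, and in ovary neither passed in 200M against WT where it could be tested.

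In young pituitary, 6 of the 10 genes were raised in 200M against WT and none was lowered, where 11.5% of all 18199 genes tested were raised and 10% were lowered. The median log2 fold change of the 10 was 0.29, against 0.00 over all genes tested. All 6 had 200M libraries that did not overlap the WT libraries in the raised direction, which held for 14.7% of genes tested. The 6 were Msn, Cfl2, Sec23a, Flna, Wasf3 and Qk, and the other 4 were Jag1, Klhl20, Elmo2 and Suz12.

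Of the actin group, Msn encodes moesin, which ties actin filaments to the plasma membrane. It was at 84.2, 76.8 and 87.7 CPM in the WT libraries, 120, 122, 109 and 120 CPM in 200H and 145, 137, 134 and 142 CPM in 200M. All 3 genotypes were separate, with 200H between the others. The share of all genes whose 200H pituitary libraries separated from WT or from 200M is not given here, so such separations are descriptions. Msn rose in 200M by 0.76 (log2, 1.70-fold, SE 0.07, adjusted p = 1.8e-06).

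Cfl2 encodes cofilin 2, which severs actin filaments. It was at 77.9, 67.4 and 63.2 CPM in WT, 91.96, 100.6, 97.05 and 81.51 CPM in 200H and 96.72, 93.56, 101.5 and 95.96 CPM in 200M. The WT libraries lay below those of both knock-in genotypes, which overlapped each other. Cfl2 rose in 200M by 0.49 (1.41-fold, SE 0.08, adjusted p = 0.000393).

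Flna encodes filamin A, which crosslinks actin filaments, and holds no match in its short annotated UTR. It was at 129, 109 and 120 CPM in WT and 164, 138, 139 and 137 CPM in 200M. The lowest 200M library lay above the highest WT library, and 1 of the 200M libraries stood well above the other 3. Flna rose by 0.29 (1.22-fold, SE 0.08, adjusted p = 0.0161), a call that was lost without WT replicate 2 (0.23, adjusted p = 0.0622) and when a trend over transcript length was removed (0.21, adjusted p = 0.0832).

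Wasf3 encodes a WAVE protein, which activates the Arp2/3 complex that branches actin. It was at 39.0, 45.8 and 43.0 CPM in WT and 48.4, 50.4, 56.7 and 51.2 CPM in 200M, without overlap. Wasf3 rose by 0.29 (1.23-fold, SE 0.09, adjusted p = 0.024). Its call was lost without WT replicate 1 (0.23, adjusted p = 0.12), without the WT library of unmatched number (0.30, adjusted p = 0.0632), without 200M replicate 3 (0.25, adjusted p = 0.083) and with the length trend removed (0.24, adjusted p = 0.0533). Elmo2, an adaptor that joins DOCK proteins to activate Rac, was at 35.0 CPM on average in WT and 34.6 CPM in 200M, with overlapping libraries and a log2 difference of -0.0083 (SE 0.09, adjusted p = 0.963).

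Sec23a encodes a subunit of the COPII coat, which carries newly made proteins out of the endoplasmic reticulum. It was at 181, 202 and 182 CPM in WT, 222, 226, 197 and 214 CPM in 200H and 239, 251, 235 and 208 CPM in 200M. The WT libraries lay below all of the 200M libraries, but 1 of them overlapped the 200H libraries. Sec23a rose in 200M by 0.33 (1.25-fold, SE 0.07, adjusted p = 0.00441).

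Jag1 encodes a ligand of Notch receptors. It was at 7.79, 8.65 and 10.2 CPM in WT and 12.4, 13.4, 11.8 and 9.95 CPM in 200M, so the lowest 200M library lay within the WT range. The log2 difference of 0.44 (SE 0.15) had an adjusted p of 0.0506. Jag1 was the lowest of the 10, at 76 to 95 reads in a WT library. It passed without the filter on low counts (0.48, adjusted p = 0.0407), without the WT library of unmatched number (0.55, adjusted p = 0.0422) and without 200M replicate 4 (0.51, adjusted p = 0.0254).

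Qk encodes quaking, an RNA-binding protein that acts on splicing and on RNA stability. It was at 166, 196 and 198 CPM in WT and 210, 211, 219 and 217 CPM in 200M, with no overlap. Qk rose by 0.22 (1.16-fold, SE 0.07, adjusted p = 0.0352), the smallest of the 6. Its call was lost without WT replicate 1 (0.14, adjusted p = 0.177), without 200M replicate 2, 3 or 4 (0.23, 0.21 and 0.21, adjusted p = 0.0703, 0.0912 and 0.0567), with all 3 genotypes in 1 fit (0.20, adjusted p = 0.0645) and with the length trend removed (0.09, adjusted p = 0.373). Qk has the most seed matches of the 10.

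Suz12, a subunit of the Polycomb complex PRC2 that methylates histone H3, was at 73.5 CPM on average in WT and 73.4 CPM in 200M (log2 difference 0.01, SE 0.08, adjusted p = 0.941). Klhl20, an adaptor of the CUL3 ubiquitin ligase, was at 39.0 CPM in WT and 44.2 CPM in 200M (0.19, SE 0.10, adjusted p = 0.181). For both the libraries of the genotypes overlapped.

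**Figure D2:**
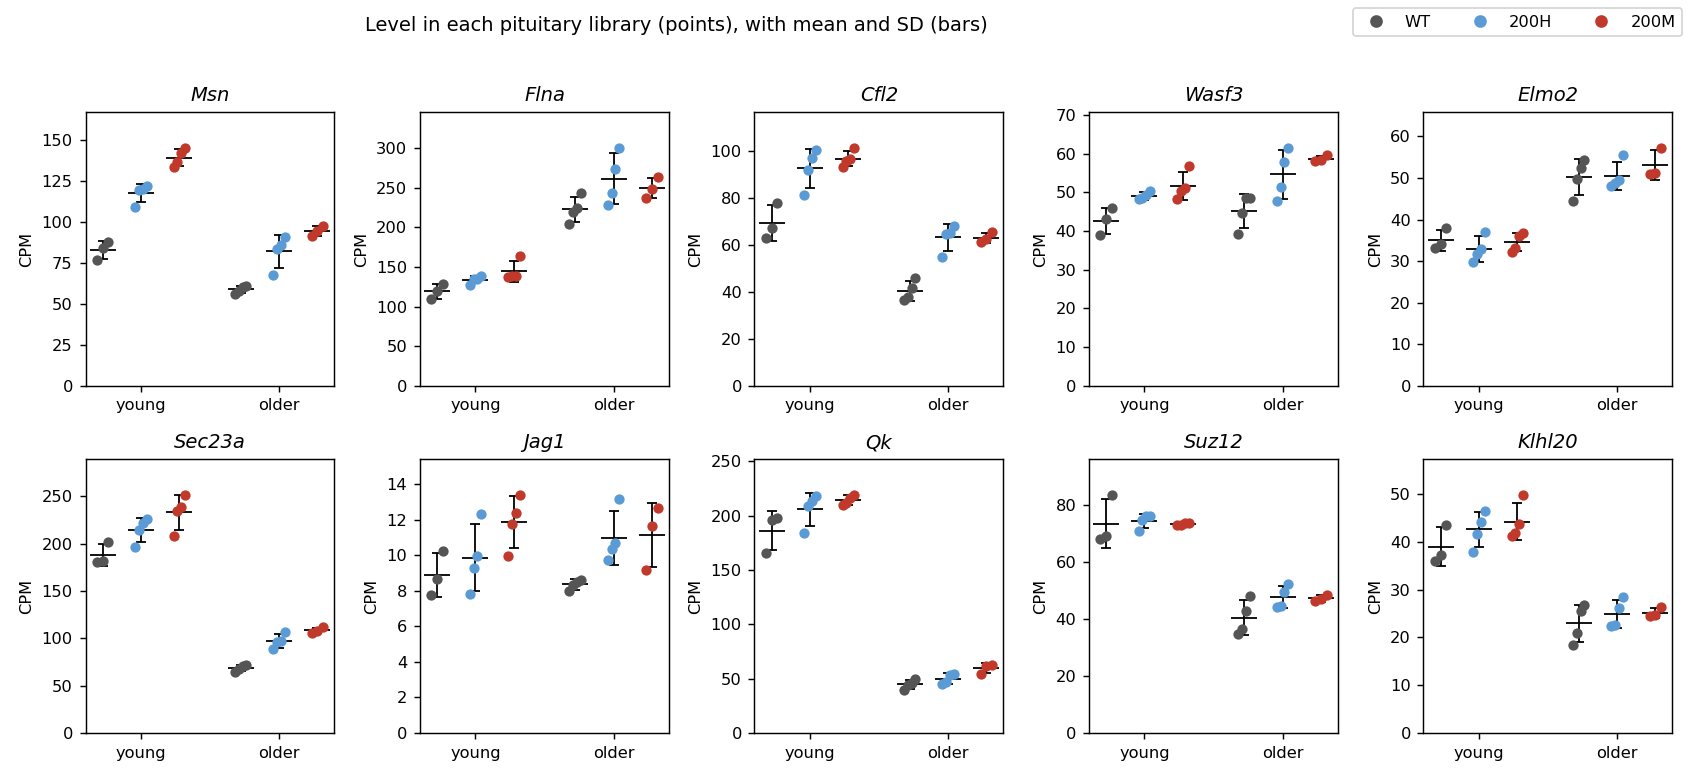
Level of each of the 10 genes in every pituitary library (points, CPM on a linear axis from 0), by genotype and cohort, with bars for mean and SD. In young mice the 200M libraries of Msn (134 to 145 CPM) lie above the 200H libraries (109 to 122 CPM) and these above WT (76.8 to 87.7 CPM).

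In older pituitary, 5 of the 10 genes were raised in 200M against WT and none was lowered, where 11.7% of 14711 genes tested were raised and 9.77% were lowered. The median of the 10 was 0.40, against -0.01 over all genes tested. These libraries come from other mice and another library method than the young ones, but the choice of genes was made with such results known. The 5 were Msn, Cfl2, Sec23a, Qk and Wasf3.

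Msn was at 60.5, 58.1, 61.0 and 55.9 CPM in WT, 83.8, 68.0, 85.8 and 91.2 CPM in 200H and 97.7, 91.7 and 94.5 CPM in 200M. The groups were again separate, and Msn rose in 200M by 0.69 (1.61-fold, SE 0.08, adjusted p = 9.15e-05). Sec23a was at 70.8, 67.6, 64.9 and 71.4 CPM in WT and 112, 106 and 108 CPM in 200M. It rose by 0.66 (1.58-fold, SE 0.08, adjusted p = 0.000114). Cfl2 was at 46.1, 37.8, 41.6 and 36.5 CPM in WT and 61.5, 65.7 and 62.5 CPM in 200M. It rose by 0.65 (1.57-fold, SE 0.10, adjusted p = 0.000806). For Sec23a and Cfl2, too, no WT library reached the 200M libraries. The share of all genes that separated in this way in older pituitary is not given here, so the separations named for older mice are descriptions. The older Cfl2, Sec23a and Suz12 counts are unstranded, and 81, 66 and 178 exonic bases of these genes lie opposite exons of 1700081N11Rik, Gm17529 and Gm26563. Reads within these bases cannot be assigned to a gene by strand.

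Qk was at 50.0, 45.6, 39.3 and 44.2 CPM in older WT and 63.0, 61.9 and 54.4 CPM in 200M, without overlap. It rose by 0.41 (SE 0.10, adjusted p = 0.0135), but not without 200M replicate 1 or 2 (0.37 and 0.39, adjusted p = 0.063 and 0.0638) or with the length trend removed (0.18, adjusted p = 0.28). Wasf3 was at 39.2, 44.6, 48.7 and 48.4 CPM in WT and 59.6, 58.2 and 58.4 CPM in 200M, also apart. It rose by 0.38 (SE 0.09, adjusted p = 0.0138), with a call lost without 200M replicate 1 (0.36, adjusted p = 0.054). Jag1 was at 8.64, 8.31, 8.51 and 7.98 CPM in WT and 9.15, 11.7 and 12.7 CPM in 200M. Its libraries did not overlap, and its log2 difference of 0.42 (SE 0.16) had an adjusted p of 0.0809. The other 4 were Suz12 (0.22, adjusted p = 0.211), Flna (0.17, adjusted p = 0.17), Klhl20 (0.12, adjusted p = 0.572) and Elmo2 (0.07, adjusted p = 0.646), whose libraries overlapped between genotypes.

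In heterozygotes fewer of the genes passed. In young 200H pituitary 2 of the 10 were raised against WT and none was lowered, where 6.56% of genes tested were raised and 5.72% lowered. Msn rose by 0.52 (SE 0.08, adjusted p = 0.000782) and Cfl2 by 0.43 (SE 0.10, adjusted p = 0.0112). The Cfl2 call was lost without the WT library of unmatched number (0.36, adjusted p = 0.0717), and Sec23a passed without 200H replicate 3 (0.24, adjusted p = 0.0361, against 0.0973 with it). In older 200H pituitary 3 of 10 were raised and none lowered, where 7.09% of genes were raised and 5.14% lowered: Cfl2 by 0.65 (adjusted p = 0.00114), Sec23a by 0.50 (adjusted p = 0.00164) and Msn by 0.48 (adjusted p = 0.00615). The 200H and 200M comparisons of a cohort share their WT libraries.

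Set directly against 200H, no gene passed in 200M pituitary of either cohort by edgeR, where 0.0383% of young and 0.121% of older genes were called, and 1 gene in each was below an unadjusted p of 0.05. In young mice that gene was Msn (0.24, SE 0.06, adjusted p = 0.27), whose libraries were fully separate and which DESeq2 called. In older mice it was Qk (0.24, SE 0.10, adjusted p = 0.395), with overlapping libraries, and DESeq2 called none. For 200M against 200H the shares of all genes with separate libraries, or called by DESeq2, are not given here.

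**Figure D3:**
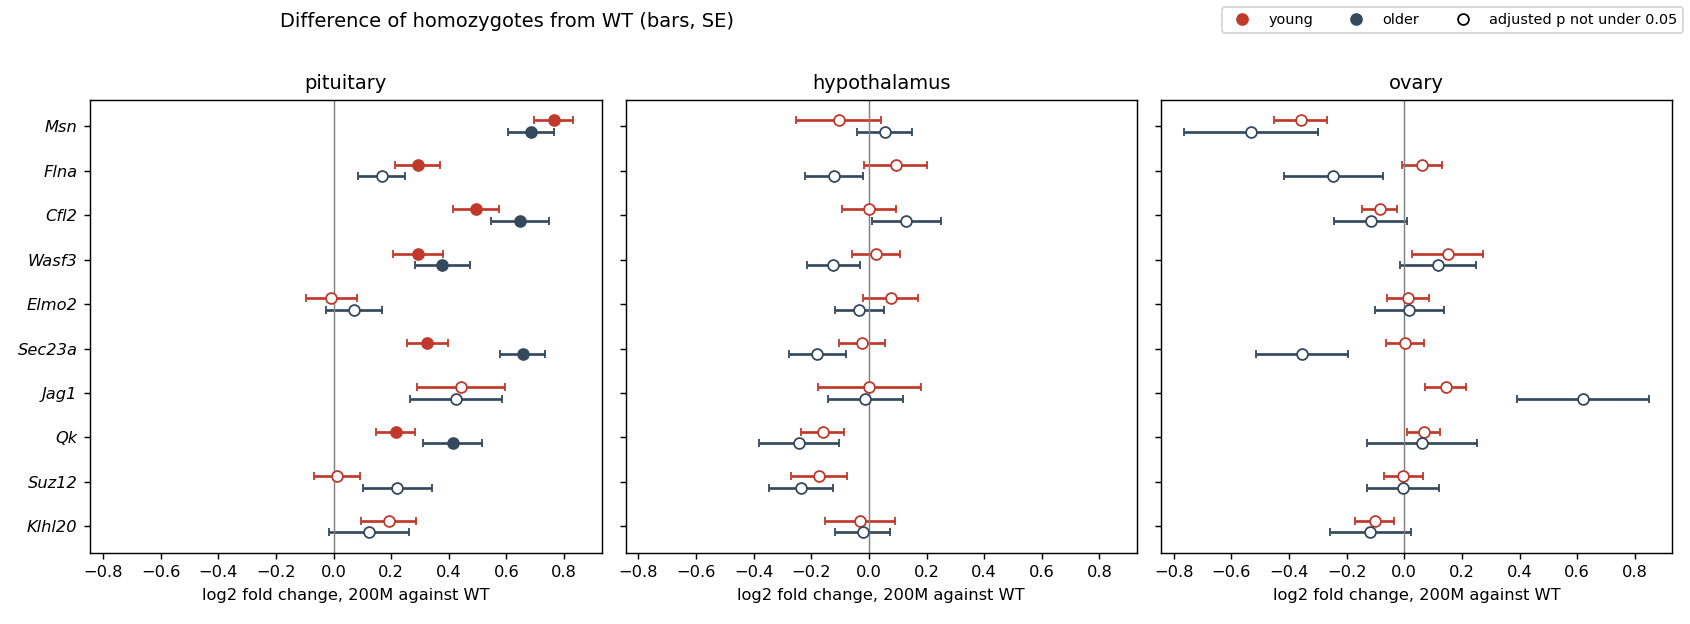
Log2 fold change of 200M against WT for each gene in pituitary, hypothalamus and ovary (bars, SE), young in red and older in dark blue, open where the adjusted p was not under 0.05. Filled points occur in the pituitary panel and in neither of the others.

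In hypothalamus and ovary, where 12 comparisons of genotype were made, edgeR called none of the 10 genes in any of them, with 10 of the 120 gene tests below an unadjusted p of 0.05. By edgeR the background was low there too. The paper, which used DESeq2, reported more genes for 200M in older hypothalamus and in ovary of both cohorts than edgeR called here. In young hypothalamus 0.02%, 0.0202% and 0% of genes tested were called (200M against WT, 200H against WT and 200M against 200H), and in older hypothalamus 0.00622%, 0% and 0%. In young ovary the values were 2.58%, 0.0051% and 0%, and in older ovary 2.71%, 0% and 1.61%. The smallest adjusted p of the 120 was that of Msn in young ovary.

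Msn in young ovary was at 540, 483, 511 and 489 CPM in WT, 376, 410, 411 and 446 CPM in 200H and 397, 476, 326 and 377 CPM in 200M. Every knock-in library lay below every WT library, with no overlap in this downward direction, which held for 4.65% of genes in 200M and 2.51% in 200H. The log2 difference of 200M was -0.36 (SE 0.09, adjusted p = 0.0539), and DESeq2, and edgeR without the filter or without 200M replicate 2, called it. That of 200H was -0.29 (SE 0.07, adjusted p = 0.359), which DESeq2 called. The shares of all genes called under these alternative settings are not given here. In older ovary Msn differed by -0.53 (SE 0.23, adjusted p = 0.294), with libraries that overlapped.

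Jag1 in older ovary was at 49.3, 33.7, 33.3 and 40.3 CPM in WT and 56.6, 41.0, 86.4 and 56.0 CPM in 200M. The libraries overlapped, and the log2 difference of 0.62 (SE 0.23) had an adjusted p of 0.217. Qk in young hypothalamus was at 1275, 1238, 1140 and 1140 CPM in WT and 915, 1198, 1154 and 1022 CPM in 200M, a difference of -0.16 (SE 0.07, adjusted p = 0.871).

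Whether the 200M difference itself was larger in pituitary was tested with an interaction term of tissue and genotype. These fits treated every library as independent. The labels do not say whether libraries of different tissues come from the same mice, and this was not checked. Each value is the pituitary difference minus that of the other tissue, so a lower 200M level there adds to it. Against young hypothalamus, 4 genes differed, all with the higher log2 value in pituitary, where 6.64% of genes did: Msn by 0.87 (SE 0.18, adjusted p = 0.002), Cfl2 by 0.49 (adjusted p = 0.0132), Qk by 0.38 (adjusted p = 0.0257) and Sec23a by 0.35 (adjusted p = 0.0461). In young hypothalamus itself these genes differed by -0.105, 0.00024, -0.161 and -0.024, in that order. Leaving out single libraries left between 2 and 4 of them. The Sec23a call was lost on leaving out any 1 of 10 libraries (adjusted p up to 0.117 without pituitary WT replicate 1), that of Qk without pituitary WT replicate 1 (0.30, adjusted p = 0.111) and 3 others, and that of Cfl2 without the pituitary WT library of unmatched number (0.43, adjusted p = 0.054). Against young ovary, 2 genes differed (5.68% of genes): Msn by 1.13 (SE 0.13, adjusted p = 8.1e-06) and Cfl2 by 0.58 (SE 0.10, adjusted p = 0.000975). Sec23a, at 0.33 (adjusted p = 0.0544), did not pass there.

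In older mice, 5 genes differed from hypothalamus in that direction, where 10.4% of genes did. They were Sec23a (0.84, SE 0.12, adjusted p = 0.000175), Qk (0.66, adjusted p = 0.0224), Msn (0.63, SE 0.12, adjusted p = 0.00151), Cfl2 (0.52, adjusted p = 0.0364) and Wasf3 (0.50, adjusted p = 0.0126). The Cfl2 call was lost on leaving out any 1 of 9 libraries (adjusted p up to 0.0927, without hypothalamus 200M replicate 3) and the Qk call without pituitary 200M replicate 1 or 2 (adjusted p = 0.0568 and 0.0607). Against older ovary, counted with another program and annotation, 3 genes differed (3.29% of genes): Msn by 1.24 (SE 0.27, adjusted p = 0.0169), Sec23a by 1.03 (SE 0.19, adjusted p = 0.0058) and Cfl2 by 0.78 (SE 0.17, adjusted p = 0.0154). In both older fits against another tissue no member was called in the opposite direction.

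In young WT mice the levels per kb of exon (CPM divided by exon length in kb) put Flna, Msn and Jag1 highest in ovary, Qk, Wasf3 and Elmo2 highest in hypothalamus, and the rest closer together. Pairwise tests between tissues called 8 of 10 genes for pituitary against hypothalamus (72.2% of all genes), 9 of 10 for pituitary against ovary (68.3%) and 10 of 10 for ovary against hypothalamus (76.7%), so these counts are near the background of tissue differences. The tests between tissues also treated every library as independent. The levels were scaled within each tissue and cohort, while the tests scaled both tissues together, so ratios of levels can differ from fitted differences. For young ovary against hypothalamus the fitted log2 difference was 0.19 for Klhl20, 0.35 for Suz12 and -0.41 for Cfl2.

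Msn was at 132 ± 6.66 in young WT ovary (mean ± SD, n = 4), 21.6 ± 1.44 in pituitary (n = 3) and 17.0 ± 1.95 in hypothalamus (n = 4), all in CPM per kb, and each neighbour differed from the next (adjusted p = 1.53e-13 and 0.0132). Flna followed the same order, at 124 ± 10.5, 14.1 ± 1.14 and 9.41 ± 0.67. Jag1 was at 9.31 ± 0.591 in ovary, 2.42 ± 0.33 in hypothalamus and 1.58 ± 0.22 in pituitary. The ovary thus held the most of these 3 messages.

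Qk was at 87.02 ± 5.03 in young WT hypothalamus, 40.9 ± 1.77 in ovary and 13.5 ± 1.31 in pituitary, each different from the next. Wasf3 was at 24.0 ± 1.30 in hypothalamus, 8.20 ± 0.665 in pituitary and 3.49 ± 0.535 in ovary. Elmo2 was at 12.8 ± 0.832, 5.79 ± 0.423 in pituitary and 7.09 ± 0.445 in ovary, and the last 2 did not differ beyond their spread (adjusted p = 0.231). Cfl2 was lowest in pituitary, at 23.6 ± 2.58 against 34.0 ± 0.713 in ovary and 37.2 ± 2.79 in hypothalamus. Sec23a was at 45.8 ± 2.87 in pituitary and 44.4 ± 2.38 in hypothalamus, which did not differ (adjusted p = 0.702), and at 33.0 ± 2.59 in ovary. Suz12 did not differ between pituitary and hypothalamus either (16.8 ± 1.99 and 15.96 ± 1.35, adjusted p = 0.986) and was at 24.7 ± 1.11 in ovary. Klhl20 was at 15.3 ± 0.581 in ovary, 11.1 ± 0.879 in hypothalamus and 9.57 ± 0.996 in pituitary. In older WT mice Msn was at 15.3 ± 0.613 in pituitary and 11.1 ± 0.934 in hypothalamus (n = 4 each, adjusted p = 2.62e-05), and at 99.7 ± 20.8 in ovary, which was counted otherwise and not tested. Sec23a was lower in older pituitary (16.7 ± 0.738) than in hypothalamus (28.5 ± 2.49, adjusted p = 8.55e-06). Suz12 (adjusted p = 0.219) and Klhl20 (adjusted p = 0.0941) did not differ between these tissues beyond their spread.

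**Figure D4:**
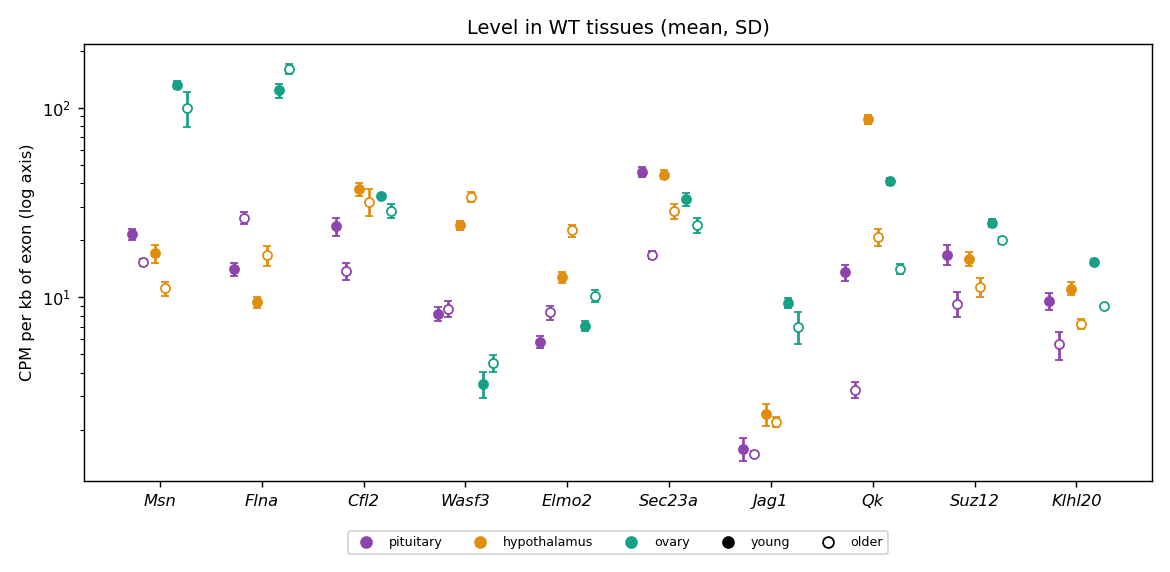
Level of the 10 genes in WT tissues in CPM per kb of exon (log axis, mean and SD), young filled and older open. The CPM were scaled within each tissue and cohort. Msn and Flna stand highest in ovary, and Qk stands highest in hypothalamus and lowest in pituitary.

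Close relatives and partners of 8 of the 10 genes were read from the same pituitary libraries, and 4 of these 13 were lowered and 1 was raised in young 200M, where 10% of all genes were lowered and 11.5% raised. In older 200M 2 were lowered and none was raised, where the shares were 9.77% and 11.7%. Ezr, which encodes ezrin, a paralogue of moesin, fell by 0.35 in young and by 0.31 in older 200M (adjusted p = 0.00156 and 0.0406), while Rdx, encoding radixin, differed by -0.03 and 0.18 and did not pass. Dstn, the cofilin relative destrin, fell by 0.28 in young (adjusted p = 0.00292) and did not pass in older (-0.25, adjusted p = 0.0715), and Cfl1 differed by -0.19 and -0.11 without passing. Wasf2, a paralogue of Wasf3, fell by 0.38 in young (adjusted p = 0.0011) and did not pass in older (-0.19, adjusted p = 0.194), and Wasf1 did not pass in either (-0.13 and -0.23). Elmo1, a paralogue of Elmo2, rose by 0.74 in young (adjusted p = 0.000143), with 0.26 in older (adjusted p = 0.157). Sec23b and Jag2, the paralogues of Sec23a and Jag1, did not pass in either cohort, at -0.12 and 0.08 in young. Ezh2, the catalytic PRC2 subunit, fell by 0.50 in young and by 1.06 in older (adjusted p = 0.0312 and 0.0303), and its partners Eed and Ezh1 and the ligase scaffold Cul3 did not pass. Of these relatives Elmo1 held 3 seed matches, Wasf1 and Ezh1 held 2 each, Rdx, Jag2 and Cul3 held 1 each, and Ezr, Sec23b, Cfl1, Dstn, Wasf2, Ezh2 and Eed held none. The differences between paralogues were not tested.

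**Figure D5:**
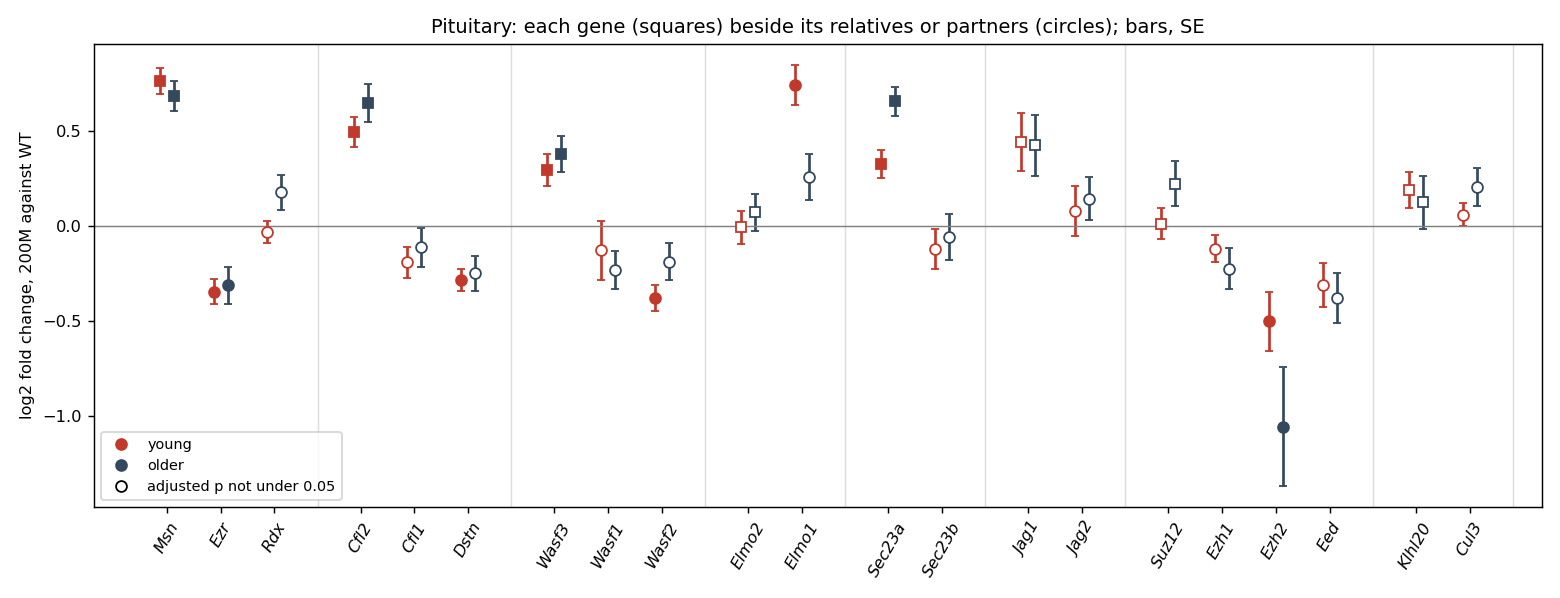
Log2 fold change of 200M against WT in pituitary for 8 of the 10 genes (squares) and their relatives or partners (circles), young in red, older in dark blue, bars SE, open where the adjusted p was not under 0.05. Msn and Ezr lie on opposite sides of 0.

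The other genes of each pathway were counted in lists drawn up around the role of each gene, with earlier results of these data known, and the share of all genes raised was again 11.5% in young and 11.7% in older 200M pituitary. Around Flna and Msn, 0 of 13 scaffold and membrane-linker genes were raised and 4 were lowered in young 200M pituitary, and 0 and 3 in older. Cd44, a receptor that binds moesin, fell by 2.01 in young and by 1.99 in older (adjusted p = 6.73e-08 and 2.36e-05), and Itgb1, the integrin beta 1 chain, by 0.28 and 0.31. Around Cfl2, 2 of 15 genes of the cofilin cycle were raised and 2 lowered in young, and 2 and 2 of 14 in older. Cap2, a cyclase-associated protein that recycles actin monomers, rose by 2.27 and 2.72 (adjusted p = 6.69e-08 and 6.54e-05), Limk1, the kinase that inactivates cofilin, rose by 0.66 and 0.73, and Ssh3, of the slingshot phosphatase family, fell by 0.70 and 0.49.

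Around Wasf3, 3 of 15 genes of the WAVE and Arp2/3 complexes were raised and 2 lowered in young, and 4 and 0 of 14 in older. Abi2, a WAVE subunit, rose by 0.45 and 0.85 (adjusted p = 0.00107 and 7.31e-05), Cyfip1, another, by 0.27 and 0.36, and Actr2, of the Arp2/3 complex, by 0.22 and 0.35. Around Elmo2, 2 of 11 genes were raised and 3 lowered in young, and 1 and 3 in older. Dock3 rose by 0.90 and 0.96 (adjusted p = 5.76e-07 and 0.00344), Elmo3 fell by 1.21 in young and fell by 1.29 in older, and Dock1 fell by 0.60 and 0.51.

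Around Sec23a, 0 of 14 other COPII genes were raised and 6 were lowered in young, and 0 and 4 in older. Sec16b and Sec16a, which organise the sites where the coat forms, fell by 1.11 and 0.34 in young and by 1.00 and 0.27 in older, and the cargo-binding subunit Sec24d fell by 0.44 and 0.49. The median of this list was -0.20 in young, against 0.00 over all genes tested. Around Jag1, 5 of 20 Notch genes were raised and 2 lowered in young (median 0.22), and 3 and 1 of 19 in older. Dll3, a Notch ligand, rose by 1.30 and 1.74 (adjusted p = 0.00247 and 0.000397), Heyl, a Notch target, by 0.33 and 0.53, and Maml1, a coactivator of Notch, fell by 0.49 and 0.39.

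Around Qk, 4 of 12 RNA-binding proteins were raised and 2 lowered in young, and 3 and 1 in older. The splicing factors Rbfox1 and Rbfox2 rose by 1.53 and 0.38 in young and by 2.13 and 0.50 in older, and Ptbp1 fell by 0.35 and 0.42. Around Suz12, 1 of 10 PRC2 genes was raised and 1 lowered in young, and 2 and 1 in older. The raised gene in both was Mtf2, an accessory subunit (0.41 and 0.39), and the lowered gene in both was Ezh2. Around Klhl20, 2 of 13 CUL3 and BTB-Kelch genes were raised and none lowered in both cohorts, and Klhl13 (0.64 and 0.39) and Klhl7 (0.29 and 0.46) were raised in both. Of 14 further genes reported as miR-200 targets, 6 were raised and 2 lowered in young, and 5 and 1 in older. Among them Zfpm2, a transcription cofactor, rose by 1.06 and 1.66, Plcg1, a phospholipase, by 0.55 and 0.42, and Rnd3 fell by 1.502 in young and fell by 1.60 in older.

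Over the 11 young pituitary libraries, which share tissue and depth range but span the 3 genotypes, the log2 CPM of Msn ran closest to Olfm2 (Pearson r = 0.986) and Spred3 (r = 0.985) among 12918 genes averaging 50 counts or more. For Sec23a the closest were Ttc3 (r = 0.971) and Brms1l (r = 0.957), and for Cfl2 they were Actr10 (r = 0.966) and Tbc1d24 (r = 0.963). These are descriptions over libraries that fall into genotype groups.

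Marker sums of several cell types in the pituitary moved with genotype in the same libraries. A sum is weighted toward the most abundant genes of its list, and some sums ran against their list medians. In young 200M the median log2 fold change was 0.35 for fibroblast and pericyte markers (8 of 9 tested above 0). It was 0.16 for oligodendrocyte and astrocyte markers (5 of 7), and both sums fell. The other young sums moved in the direction of their medians, with 5 of 10 genes of the hormone list above 0. The hormone list holds 10 genes, of hormones, hormone receptors and the transcription factor Pou1f1. Its summed level ranged over 164900 to 188200 CPM in young WT and 68690 to 88340 CPM in 200M, with 0 of 10 raised and 4 lowered. In older mice it ranged over 290900 to 323100 CPM in WT and 162800 to 211900 CPM in 200M, with 1 of 10 raised and 3 lowered. There the median log2 fold change of the list was 0.03, with 6 of 10 genes above 0, so the fall of the sum ran against the median. Stem cell and epithelial markers summed to 247 to 299 CPM in young WT and 94.9 to 108 CPM in 200M, with 1 of 8 tested raised and 3 lowered. Macrophage and leukocyte markers, 4 of 9 raised, summed to 62.4 to 79.1 CPM in WT and 88.0 to 103 CPM in 200M, and neuron markers, 4 of 9 raised and 2 lowered, to 954 to 1009 and 1022 to 1156 CPM. Endothelial markers, of which edgeR called 0 of 8 and 2 were below an unadjusted p of 0.05, summed to 247 to 278 and 276 to 290 CPM, and fibroblast and pericyte markers, 3 of 9 raised and 1 lowered, to 811 to 918 and 634 to 755 CPM. Oligodendrocyte and astrocyte markers, 1 of 7 raised and 1 lowered, summed to 125 to 131 CPM in young WT and 102 to 105 CPM in 200M. In older mice the macrophage sum ranged over 122 to 150 CPM in WT and 162 to 238 CPM in 200M, with 1 of 10 raised. The neuron sum ranged over 649 to 746 and 922 to 986 CPM, with 6 of 9 raised and 1 lowered. The older stem cell and epithelial sum ranged over 387 to 479 CPM in WT and 139 to 160 CPM in 200M, with 2 of 7 raised and 3 lowered. The fibroblast and pericyte sum ranged over 887 to 1219 and 681 to 871 CPM. Of that list 2 of 9 were raised and 1 lowered, with a median log2 fold change of 0.37. The oligodendrocyte and astrocyte sum, which overlapped, ranged over 113 to 149 and 132 to 148 CPM, with 3 of 8 raised and 1 lowered. The older endothelial sums overlapped as well (323 to 435 and 365 to 453 CPM), with 1 of 9 raised. Of all genes tested, 11.5% were raised and 10% lowered in young 200M pituitary, and 11.7% and 9.77% in older. No marker of these 7 lists was at 0 in all pituitary libraries of a cohort. Their part in the rise of Msn, Cfl2 and Sec23a was not tested.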

How the data were processed

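RNA-seq libraries were compared by genotype within each tissue and cohort. The authors aligned reads with STAR 2.7.1a to mm10 (GRCm38) and deposited raw counts per gene. Young reads (rRNA-depleted, stranded) were counted with featureCounts, older pituitary and hypothalamus reads (poly(A), unstranded) with HTSeq 0.9.1, and older ovary reads with unstranded featureCounts. The same tables hold the authors' fold changes and p-values, which were not used. The 66 libraries present in a pair of tables had identical counts in both, and 3 count columns under a repeated header were not used. For 1 young WT pituitary library the number in the column name (3) matched no sample title (1, 2 and 4), so it was placed by its group name and its replicate number was not used.

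Each pair of genotypes was fitted with edgeR 4.0.16 (filterByExpr, TMM scaling, quasi-likelihood test, Benjamini-Hochberg adjustment over all genes tested, call at an adjusted p under 0.05) in R 4.3.3. CPM values are TMM-scaled within each tissue and cohort. Each SE is the absolute log2 fold change divided by the square root of the F statistic of the quasi-likelihood test. DESeq2 1.42.0 was an alternative. Fits were first tested on simulated data. No library pair of a group agreed within sampling noise, and the study's methods take replicates from separate mice. Replicate numbers were not shown to pair samples of different genotypes within a tissue, and pairing across tissues was not checked. Gene symbols came from 1 table that pairs them with identifiers, with gaps filled from a reference list of gene names (99.54% then had one). Seed matches were counted in the longest annotated 3′ UTR of GRCm38 coding transcripts.

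The 10 genes and all lists were chosen with earlier results of these data known. Named besides them are Zeb1, Zeb2, the miR-200 host transcripts, the closest relatives, at most 3 genes per pathway list with the smallest p in young 200M pituitary among those called in the same direction in both cohorts, and, for the 3 of the 10 with the smallest p there, the 2 genes of highest correlation. A few items that this rule names are not reported here.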

Additional observations from a re-analysis of the deposited data

Results flagged for a closer look

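Of 150 groups of 4 libraries tested for a library far from the other 3, 4 had one, where chance gives about 1 in 20. Flna was lowest in older WT hypothalamus replicate 1 (116 CPM, the others 148 to 154 CPM) and highest in young 200M pituitary replicate 1 (164 CPM, the others 137 to 139 CPM). Jag1 was highest in older 200H ovary replicate 4 (72.1 CPM, the others 38.1 to 42.7 CPM) and lowest in young 200M hypothalamus replicate 3 (12.0 CPM, the others 13.9 to 14.2 CPM).

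The 200M effect differed between tissues by the interaction test for 14 of the 40 gene and tissue pairs tested, each with the larger log2 value in pituitary. Against young hypothalamus these were Msn (0.87), Cfl2 (0.49), Qk (0.38) and Sec23a (0.35), and against young ovary Msn (1.13) and Cfl2 (0.58). Against older hypothalamus they were Sec23a (0.84), Qk (0.66), Msn (0.63), Cfl2 (0.52) and Wasf3 (0.50), and against older ovary Msn (1.24), Sec23a (1.03) and Cfl2 (0.78). Of all genes tested, 6.64%, 5.68%, 10.4% and 3.29% were called in that direction in these fits, in the order given. The comparisons within a cohort share their pituitary libraries.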

How the results depend on the processing

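In 200M pituitary, Msn, Cfl2 and Sec23a were called in both cohorts under all 13 alternatives each. Removing a trend over transcript length left 3 genes in young 200M against WT (Msn, Cfl2 and Sec23a), and the cause was not tested. Leaving out single libraries left 4 to 6 genes there, 1 to 3 in young 200H against WT (1, Msn, without the WT library of unmatched number), 3 to 5 in older 200M against WT (3 without 200M replicate 1) and 0 to 1 in young ovary 200M against WT (Msn). DESeq2 called 1 gene, Msn, in young pituitary 200M against 200H, in young ovary 200M against WT and in young ovary 200H against WT. Without the filter on low counts 1 gene was called in young ovary 200M against WT (Msn, lowered) and in older hypothalamus 200M against 200H (Qk, lowered). The shares of all genes called by DESeq2 or without the filter are not given here, so these calls have no background beside them. Genes differing between tissues ranged from 2 to 4 for young pituitary minus hypothalamus and from 3 to 6 for older pituitary minus hypothalamus.

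Values near 0 changed sign. With the length trend removed, Suz12 was at -0.029 in young 200M and -0.0058 in young 200H, Elmo2 at -0.018 in older 200M and -0.059 in older 200H, and Qk at -0.00089 in older 200H. Elmo2 was at 0.027 in young 200M without the filter, and Suz12 at -0.0028 with all 3 genotypes in 1 fit. On leaving out single libraries Elmo2 ranged from -0.046 to 0.053 and Suz12 from -0.042 to 0.114 in young 200M, Suz12 from -0.023 to 0.132 in young 200H, and Elmo2 from -0.046 to 0.044 in older 200H. For differences between tissues the ranges were -0.136 to 0.0016 (Elmo2, young pituitary minus hypothalamus), -0.06 to 0.056 and -0.038 to 0.13 (Elmo2 and Suz12, young pituitary minus ovary) and -0.326 to 0.055 (Jag1, older pituitary minus ovary).

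The replicate block was fitted although the numbers pair no samples by any label. Over 64 same-numbered pairs of different genotypes within a tissue and cohort, the correlation of deviations ran from -0.66 to 0.43. In 11 of these pairs the library correlated best with its own number. Equal numbers in different tissues were not compared. Under the replicate block 5 genes were called in young 200M against WT, with Jag1 gained (0.66, adjusted p = 0.0276) and Wasf3 (0.24, adjusted p = 0.197) and Qk (0.24, adjusted p = 0.0728) lost. Suz12 was then at -0.035 there and Klhl20 at -0.0077 in young 200H. Young hypothalamus, with 3321845 to 5143128 counts a library, was the shallowest tissue and gave Jag1 41 to 65 reads in a WT library.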
